A study of Mus musculus with 23 samples.

Results

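The contrast described here asks whether a diet rich in fat and sugar changed testis gene expression differently in NZO/HlLtJ mice and in CAST/EiJ mice. It is the log2 diet effect in NZO/HlLtJ, 44% fat minus 10% fat, minus the same log2 diet effect in CAST/EiJ, and a positive value means a more positive diet effect in NZO/HlLtJ. The members are the 15 libraries of these strains, of 23 in the series, chosen by the strain and diet in their labels. They are 4 NZO/HlLtJ libraries on 44% fat, 4 NZO/HlLtJ libraries on 10% fat, 4 CAST/EiJ libraries on 44% fat and 3 CAST/EiJ libraries on 10% fat. All are testes of male mice that the labels call wild type, both diets contained fiber, and the diets ran from 6 weeks of age to collection at 16 weeks. Polyadenylated RNA of each testis was sequenced, and values are estimated counts per gene, shown as counts per 1e+06 after TMM scaling (CPM). The labels give no body weight, glucose or fertility measure for these mice, and nothing says that replicates of a group came from separate litters or cages.

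NZO/HlLtJ is an inbred strain with polygenic obesity in which males are prone to diabetes, while CAST/EiJ is a lean wild-derived inbred strain of another subspecies. The testis holds germ cells from spermatogonia to elongating spermatids, the Sertoli cells that nurse them, and, between the tubules, Leydig cells that make testosterone from cholesterol, along with macrophages and vessels. Diet-induced obesity is known to act on the testis through insulin, sex steroids, inflammation and nutrient supply. In bulk tissue, fewer cells of a type and less RNA per cell cannot be told apart.

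No gene passed the threshold for a different diet effect between the strains. In edgeR's quasi-likelihood test, 0 of 22873 genes (0%) had an adjusted p under 0.05, and 1704 genes (7.45%) had an unadjusted p under 0.05, of which 879 (3.84%) were positive and 825 (3.61%) negative. DESeq2 called 7 genes, at adjusted p values between 0.0454 and 0.0457, and limma-voom called 0, with 1747 genes at an unadjusted p under 0.05. Within strains, diet changed 1 gene of 22873 in NZO/HlLtJ (0.00437%), the amino acid transporter gene Slc38a2, where 1555 genes (6.8%) had an unadjusted p under 0.05, 3.68% higher and 3.12% lower on 44% fat. That count of 1555 was 929 without NZO/HlLtJ 10% fat replicate 3 and 2095 without replicate 4. For NZO/HlLtJ DESeq2 called 7 genes and limma-voom 1, while edgeR called 0 to 5 without 1 library, the 5 without NZO/HlLtJ 10% fat replicate 4, and 0 with the run of ID numbers in the sample titles as a term or with a robust spread. In CAST/EiJ edgeR called 0 genes (0%), DESeq2 3 and limma-voom 1, edgeR also called 3 without CAST/EiJ 44% fat replicate 3, and 941 genes (4.11%) had an unadjusted p under 0.05, 2.21% higher and 1.9% lower on 44% fat. That one strain has a call and the other has none does not show that the effects differ, and the contrast itself gave Slc38a2 an adjusted p of 0.337.

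Intervals were narrow for well-expressed genes and wide for low ones. Among 10108 genes with a mean of at least 10 CPM, the 95% confidence interval of the difference lay within 2-fold in either direction for 99.5% and within 1.5-fold for 96.8%. Among 17138 genes with at least 1 CPM these shares were 92.4% and 72.9%, and among 5735 genes under 1 CPM the interval lay within 2-fold for 5.61%. The median distance from the estimate to either bound was 0.195, 0.261 and 1.36 on the log2 scale in these 3 classes of genes.

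Depth ranged over 31.9 to 78.7 M (1e+06) counts per library, the middle library having 36 M and the deepest being CAST/EiJ 44% fat replicate 1. The first principal component of the 15 libraries held 79.4% of the variance and separated the strains. On the second, with 2.19%, NZO/HlLtJ 44% fat replicate 3 scored 37.5 and NZO/HlLtJ 10% fat replicate 4 scored 24.4, against -22.5 to 5.2 in the other NZO/HlLtJ libraries. These high-scoring libraries also had the highest Sertoli marker sums in NZO/HlLtJ, 1990 CPM each, against 1490 to 1640 CPM in the others. Their elongating spermatid sums were the lowest in NZO/HlLtJ, 16100 and 15600 CPM, against 17500 to 19900 CPM. These lists were picked after their values were seen, and the part of cell types was not tested. Leaving out both of these libraries gave 1 call in place of 0, the complement gene C4b. In CAST/EiJ 44% fat replicate 2 the epididymis gene Crisp1 stood at 99 CPM, against at most 0.207 CPM in the other 14 libraries, while the other 6 epididymis markers summed to 94 CPM there and to 90.9 to 119 CPM in the others. Aqp9, Wfdc15a and Wfdc10 made up nearly all of this sum in every group, while Lcn12, Cst11 and Rnase10 reached at most 0.251 CPM. Only 7 of the 19 listed epididymis markers have counts, and whether epididymis tissue was present was not tested. Leaving CAST/EiJ 44% fat replicate 2 out together with the deepest library gave 0 calls. Leydig markers summed to 1500 to 1830 CPM in NZO/HlLtJ on 44% fat and 1480 to 2060 CPM on 10% fat. In CAST/EiJ they summed to 807 to 1030 CPM on 44% fat and 914 to 1110 CPM on 10% fat. On 10% fat, Cyp17a1 reached 676 CPM in NZO/HlLtJ and 214 CPM in CAST/EiJ, and Hsd3b1 354 and 68.2 CPM. Cyp11a1 went the other way, reaching 113 CPM in NZO/HlLtJ and 181 CPM in CAST/EiJ, as did Hsd3b6, with 7.25 and 37.6 CPM. The sums therefore do not rank the strains by Leydig cell content.

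Promoters are shown for genes around which the results turn and whose longest transcript shares no exact 100-base window with a transcript of another gene. They are Slc38a2 and the histone demethylase gene Kdm6a among positive differences and Hspbap1 among negative ones. Shorter or inexact matches to relatives were not searched. Atf4, the transcription factor gene that acts upstream of Slc38a2 when amino acids are scarce, is shown as well. The sequences are from RefSeq on GRCm38.p6 and give the 200 bases before the annotated start, 5′ to 3′ on the gene's strand, at chr15:96699729-96699928 on the minus strand for Slc38a2, and on the plus strand at chr15:80254984-80255183 for Atf4, chrX:18162375-18162574 for Kdm6a and chr16:35770186-35770385 for Hspbap1. Capitals mark the E-box, CACGTG, and the core of the cAMP response element, whose letters are TGACG on one strand and, read on the opposite strand, CGTCA.
Slc38a2: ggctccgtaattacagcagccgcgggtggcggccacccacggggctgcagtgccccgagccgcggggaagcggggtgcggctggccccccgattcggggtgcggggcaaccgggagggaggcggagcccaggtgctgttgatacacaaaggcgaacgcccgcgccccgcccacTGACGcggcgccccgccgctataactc
Atf4: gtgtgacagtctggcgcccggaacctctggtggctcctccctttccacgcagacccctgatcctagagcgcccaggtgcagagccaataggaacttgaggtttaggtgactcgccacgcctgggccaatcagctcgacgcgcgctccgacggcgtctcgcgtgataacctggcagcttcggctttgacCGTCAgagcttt
Kdm6a: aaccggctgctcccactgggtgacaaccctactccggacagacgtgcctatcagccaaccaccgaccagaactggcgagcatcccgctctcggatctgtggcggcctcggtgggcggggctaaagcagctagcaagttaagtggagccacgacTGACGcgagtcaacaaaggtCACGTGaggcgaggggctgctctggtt
Hspbap1: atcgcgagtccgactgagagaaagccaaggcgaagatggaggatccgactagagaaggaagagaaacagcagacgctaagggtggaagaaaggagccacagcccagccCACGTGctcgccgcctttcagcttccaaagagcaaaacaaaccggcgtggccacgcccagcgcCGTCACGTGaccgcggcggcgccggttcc
Each of the 4 promoters holds TGACG on one strand or the other, Kdm6a also holds 1 E-box, and Hspbap1 holds 2, of which one overlaps its CGTCA. Among 14455 tested genes with a RefSeq promoter, 26.1% hold TGACG and 8.68% hold CACGTG in the 250 bases before the start, searched on both strands. The 4 promoters shown were picked, so their share cannot be set beside these. Among genes named for the smallest p, TGACG was in 2 of 2 promoters for positive and 1 of 2 for negative differences. Among genes whose diets were apart in both strains in opposite directions, it was in 4 of 13 and 2 of 4. These matches describe letters and say nothing about binding. The amino acid response element that ATF4 is known to use in Slc38a2 lies in the first intron, outside this window.

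Slc38a2 encodes SNAT2, a transporter of small neutral amino acids that cells raise when amino acids are scarce. On 44% fat, NZO/HlLtJ testes had 66.8, 66.1, 57.9 and 82.1 CPM of Slc38a2, against 45.1, 53.2, 43.3 and 48.8 CPM on 10% fat. CAST/EiJ testes on 44% fat had 40.6, 47.9, 46.1 and 45.4 CPM of Slc38a2, against 45.7, 44.4 and 51.2 CPM on 10% fat. The diets do not overlap in NZO/HlLtJ, where all 4 libraries on 44% fat lie above all 4 on 10% fat, and they overlap in CAST/EiJ. Slc38a2 rose 1.43-fold in NZO/HlLtJ (log2 0.52, SE 0.09, adjusted p = 0.0363), while the fold in CAST/EiJ was 0.954 (log2 -0.07, SE 0.09). The difference of the diet effect was 0.59 on the log2 scale (SE 0.13, 95% interval 0.33 to 0.85), with an unadjusted p of 7.37e-05 and an adjusted p of 0.337. The rise within NZO/HlLtJ passed under 16 of 27 other settings, with log2 values between 0.42 and 0.60, and did not pass with the run of ID numbers as a term (adjusted p = 0.19), within the first run (0.0992), with a robust spread (0.0723) or under 8 of the 15 fits without 1 library.

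Atf4 encodes the transcription factor that raises amino acid transport and synthesis genes under the integrated stress response. NZO/HlLtJ testes had 36.0, 32.4, 31.0 and 35.3 CPM of Atf4 on 44% fat, against 27.2, 27.8, 28.5 and 32.0 CPM on 10% fat. CAST/EiJ testes had 27.5, 28.5, 27.1 and 27.4 CPM of Atf4 on 44% fat, against 30.7, 28.6 and 27.9 CPM on 10% fat. One NZO/HlLtJ library on 10% fat reaches into the range of the 44% fat libraries, and the CAST/EiJ diets overlap. The difference for Atf4 was 0.30 (SE 0.09, unadjusted p = 0.00239, adjusted p = 0.659). Of 20 genes of the endoplasmic reticulum and amino acid stress list, 0 passed the threshold, 3 had an unadjusted p under 0.05 (Slc38a2, Atf4 and the cystine transporter gene Slc7a11, all positive), and 6 of 20 lay above 0 with a median of -0.06. Asns, the asparagine synthetase gene and a known target of ATF4, was at 109 ± 4.67 CPM on 44% fat and 116 ± 3.25 CPM on 10% fat in NZO/HlLtJ (SD, n = 4 each), against 195 ± 7.01 CPM (n = 4) and 197 ± 23.5 CPM (n = 3) on 44% and 10% fat in CAST/EiJ. The difference for Asns, chosen after its values were seen, was -0.06 (SE 0.09, adjusted p = 0.888).

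**Figure D1:**
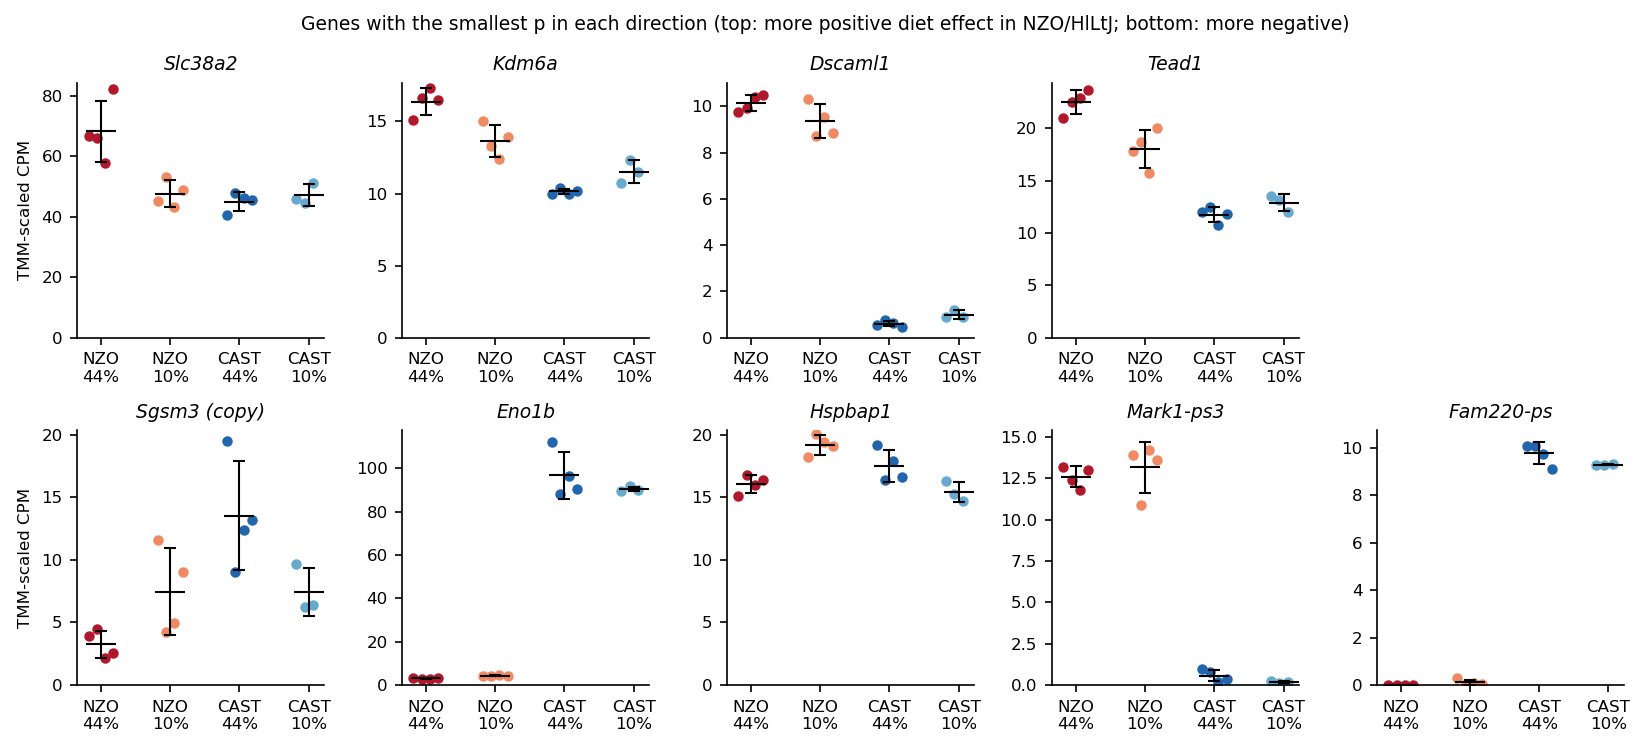
Expression (TMM-scaled CPM, y axes starting at 0) of genes named for the smallest p in each direction, 4 positive above and 5 negative below, in NZO/HlLtJ (NZO) and CAST/EiJ (CAST) testes on 44% or 10% fat. Points are libraries, and bars give the mean ± SD (n = 4, 4, 4 and 3); Slc38a2 on 44% fat lies at 57.9 to 82.1 CPM in NZO/HlLtJ, above every library on 10% fat, while Eno1b, Mark1-ps3, Fam220-ps and Dscaml1 differ far more between strains than between diets.

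Other positive genes are regulators of chromatin and growth and a cell adhesion gene. Kdm6a encodes UTX, an X-linked demethylase of histone H3 lysine 27. NZO/HlLtJ testes had 15.1, 16.6, 17.3 and 16.5 CPM of Kdm6a on 44% fat, against 15, 13.3, 12.4 and 13.9 CPM on 10% fat. CAST/EiJ testes had 9.98, 10.4, 10.0 and 10.2 CPM of Kdm6a on 44% fat, against 10.7, 12.3 and 11.5 CPM on 10% fat. Kdm6a was higher on 44% fat in NZO/HlLtJ and lower on 44% fat in CAST/EiJ with no overlap in either strain, and the difference was 0.44 (SE 0.11, unadjusted p = 0.000372, adjusted p = 0.526).

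Tead1, a transcription factor gene of the Hippo growth pathway, had 21.0, 22.5, 22.9 and 23.7 CPM in NZO/HlLtJ on 44% fat, against 17.8, 18.7, 15.7 and 20.0 CPM on 10% fat. In CAST/EiJ Tead1 had 12, 12.5, 10.8 and 11.8 CPM on 44% fat, against 13.5, 13.2 and 12 CPM on 10% fat. Its diets do not overlap in NZO/HlLtJ and overlap in CAST/EiJ, with a difference of 0.45 (SE 0.11, adjusted p = 0.526). Dscaml1, a cell adhesion gene, was at 9.75 to 10.5 CPM on 44% fat and 8.73 to 10.3 CPM on 10% fat in NZO/HlLtJ, but at 0.464 to 0.75 CPM on 44% fat and 0.889 to 1.22 CPM on 10% fat in CAST/EiJ. Its difference of 0.84 (SE 0.21, adjusted p = 0.526) therefore rests on about 1 CPM in CAST/EiJ, where the diet effect was -0.72.

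Hspbap1 encodes a protein that binds the small heat shock protein HSPB1. Among the negative genes named for the smallest p, only Hspbap1 was found to share no exact 100-base window with another gene. NZO/HlLtJ testes had 15.1, 16.8, 16 and 16.4 CPM of Hspbap1 on 44% fat, against 18.2, 20.1, 19.4 and 19.1 CPM on 10% fat. CAST/EiJ testes had 19.2, 16.4, 17.9 and 16.6 CPM of Hspbap1 on 44% fat, against 16.3, 15.3 and 14.7 CPM on 10% fat. The diets are apart in both strains, in opposite directions, although in CAST/EiJ the nearest libraries lie at 16.4 and 16.3 CPM. The difference was -0.44 (SE 0.10, 95% interval -0.64 to -0.24, unadjusted p = 9.49e-05, adjusted p = 0.362). Over the 27 other settings it lay between -0.53 and -0.39, and DESeq2 called it at an adjusted p of 0.0454.

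Of the other 4 negative genes, Eno1b is a retrocopy, Mark1-ps3 and Fam220-ps are named as pseudogenes, and the last bears the same symbol, Sgsm3, as another gene. Whether reads were divided between relatives was not tested, and the 100-base windows shared with other transcripts could be computed for Eno1b and Fam220-ps (11.5%, with Fam220a) and not for the others. Eno1b, a retrocopy of the glycolytic enolase gene Eno1, was at 3.38, 2.97, 2.75 and 3.34 CPM in NZO/HlLtJ on 44% fat, against 4.23, 4.28, 4.59 and 4.26 CPM on 10% fat. In CAST/EiJ Eno1b was at 112, 88.2, 96.5 and 90.3 CPM on 44% fat, against 89.5, 91.6 and 90.0 CPM on 10% fat. Its difference was -0.58 (SE 0.12, adjusted p = 0.337), on an NZO/HlLtJ level far below that in CAST/EiJ. For Eno1b, 73.4% of the windows occur in another transcript of GENCODE M21, mostly of Eno1. Eno1 itself stood at 329 ± 17.4 CPM on 44% fat and 341 ± 23.4 CPM on 10% fat in NZO/HlLtJ (SD, n = 4 each), against 295 ± 15.2 CPM (n = 4) and 283 ± 6.6 CPM (n = 3) on 44% and 10% fat in CAST/EiJ. With both summed, the difference was -0.13 (SE 0.08, adjusted p = 0.73).

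The second gene annotated as Sgsm3 (ENSMUSG00000103565, chr15:81002628-81011736) had the smallest p of all the named genes. It was at 3.89, 4.44, 2.13 and 2.56 CPM in NZO/HlLtJ on 44% fat, against 11.6, 4.25, 4.97 and 9.0 CPM on 10% fat. In CAST/EiJ it was at 19.5, 9.03, 12.4 and 13.2 CPM on 44% fat, against 9.65, 6.23 and 6.41 CPM on 10% fat. The diets overlap in both strains, by 1 library each way, and the difference was -2.06 (SE 0.39, unadjusted p = 1.65e-05, adjusted p = 0.337). The main Sgsm3 gene (ENSMUSG00000042303), which encodes a protein thought to act on Rab GTPases, had a difference of 0.21 (SE 0.10, adjusted p = 0.665), and the sum of both had -0.06 (SE 0.09, adjusted p = 0.873).

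Mark1-ps3, a pseudogene of a kinase gene, was at 11.8 to 13.2 CPM on 44% fat and 10.9 to 14.2 CPM on 10% fat in NZO/HlLtJ, but at 0.942, 0.776, 0.177 and 0.377 CPM on 44% fat and 0.27, 0.094 and 0.189 CPM on 10% fat in CAST/EiJ. Its difference was -1.82 (SE 0.44, adjusted p = 0.526), against -0.19 (SE 0.12, adjusted p = 0.729) for the sum with Mark1. Fam220-ps had 0 counts in all 4 NZO/HlLtJ libraries on 44% fat and 17 counts over the 4 on 10% fat, which is at least 5.4-fold lower on 44% fat with a floor of 3 counts over the group. Of these counts 10 are from NZO/HlLtJ 10% fat replicate 1, and without it the bound is 2.87-fold. In CAST/EiJ it was at 9.12 to 10.1 CPM on 44% fat and 9.27 to 9.32 CPM on 10% fat. Summed with Fam220a, which stood at 137 CPM or more in every library, the difference was -0.16 (SE 0.09, adjusted p = 0.697). In each of these sums one gene is far below the other in at least one strain, so the sum mostly gives the value of the more abundant gene there.

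Among well-expressed genes, the diet effects of the strains tended to point in opposite directions. Over the 10108 genes with at least 10 CPM, the log2 diet effects in NZO/HlLtJ and in CAST/EiJ had Spearman's rho of -0.328 and Pearson's r of -0.184, and 36% of genes had the same sign in both strains. Over the 17138 genes with at least 1 CPM, rho was -0.162, r was -0.0283 and 40.7% had the same sign. These strains share no library in this comparison, but genes are not independent replicates, so this describes these libraries. Within the first run of ID numbers, which holds 2 and 2 NZO/HlLtJ libraries and 1 and 1 CAST/EiJ libraries, rho was 0.064 and 51.5% of genes had the same sign. With the run of ID numbers as a term over all libraries, rho was -0.332 and 35.7% of genes had the same sign. Without the NZO/HlLtJ libraries that stand apart on the second principal component, rho was -0.257. Without the deepest library and the one with the most Crisp1, both CAST/EiJ, rho was -0.273. The effects were small: their SD over these genes was 0.09 on the log2 scale in NZO/HlLtJ and 0.0908 in CAST/EiJ.

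**Figure D2:**
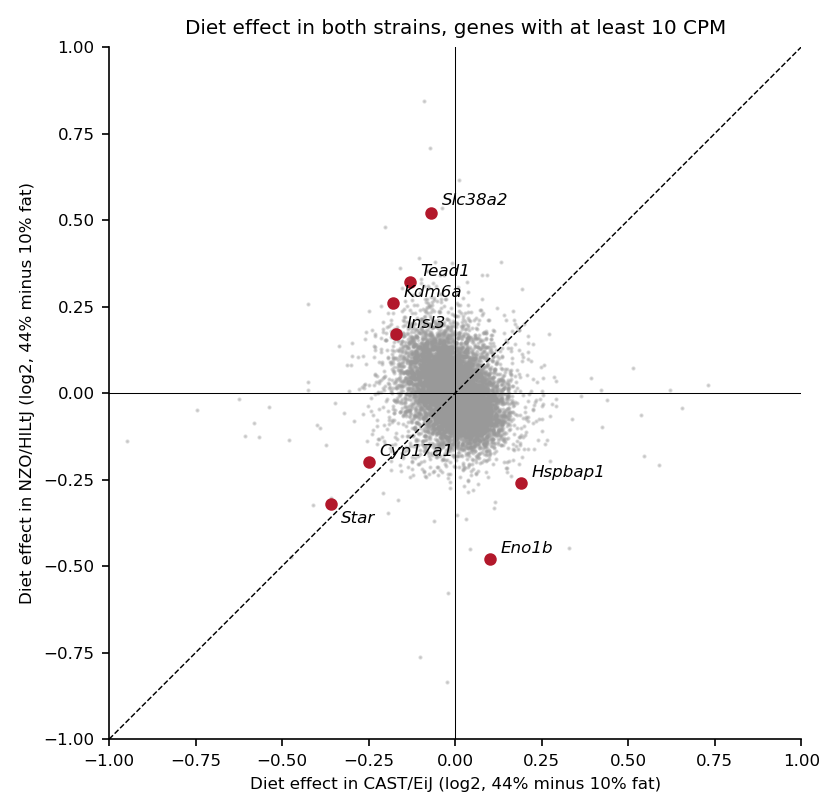
Log2 diet effect (44% minus 10% fat) in NZO/HlLtJ (y axis) against CAST/EiJ (x axis) for 10108 genes with at least 10 CPM, with the named genes of that level in red. The dashed line marks equal effects, 11 genes lie beyond the axes, and the cloud leans the other way (rho -0.328), with Slc38a2 above it and Eno1b and Hspbap1 at lower right.

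The difference of the diet effect varied with transcript length and GC content. Over 10093 genes with a GENCODE M21 transcript, the difference of the diet effect had a rho of 0.402 with the length and -0.397 with the GC content of the longest transcript. The diet effect in NZO/HlLtJ had a rho of 0.479 with length and -0.255 with GC content. In CAST/EiJ the diet effect had a rho of -0.16 with length and 0.425 with GC content. For the difference, medians were also taken by quartile. Its median was 0.068 in the top quartile of length and -0.068 in the bottom quartile, and 0.063 in the bottom quartile of GC content and -0.07 in the top quartile. The level of long over short transcripts, on the log2 scale relative to the strain's mean, was 0.017, 0.039, 0.099 and 0.039 in NZO/HlLtJ on 44% fat and -0.001, 0.027, -0.167 and -0.067 on 10% fat, so replicates 3 and 4 on 10% fat stand low. These are the only NZO/HlLtJ libraries of the third run of ID numbers, and the second run holds NZO/HlLtJ libraries on 44% fat only, so outside the first run diet and run cannot be told apart in NZO/HlLtJ. In CAST/EiJ the level of long over short transcripts was -0.055, 0.013, -0.039 and 0.029 on 44% fat and 0.016, -0.024 and 0.051 on 10% fat. The level of GC-rich over GC-poor transcripts in CAST/EiJ was 0.105, -0.073, 0.06 and 0.032 on 44% fat and -0.049, 0.069 and -0.145 on 10% fat. In NZO/HlLtJ that GC level was 0.006, -0.031, -0.005 and -0.055 on 44% fat and -0.031, -0.088, 0.091 and 0.129 on 10% fat. With offsets for GC content and length, 0 genes were called and 1633 had an unadjusted p under 0.05, and the rho between the strains' diet effects was -0.25. The part of length and GC content in single genes was not tested beyond these offsets, under which Slc38a2 had a difference of 0.50, Kdm6a 0.34, Tead1 0.34, Hspbap1 -0.53 and Eno1b -0.51.

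**Figure D3:**
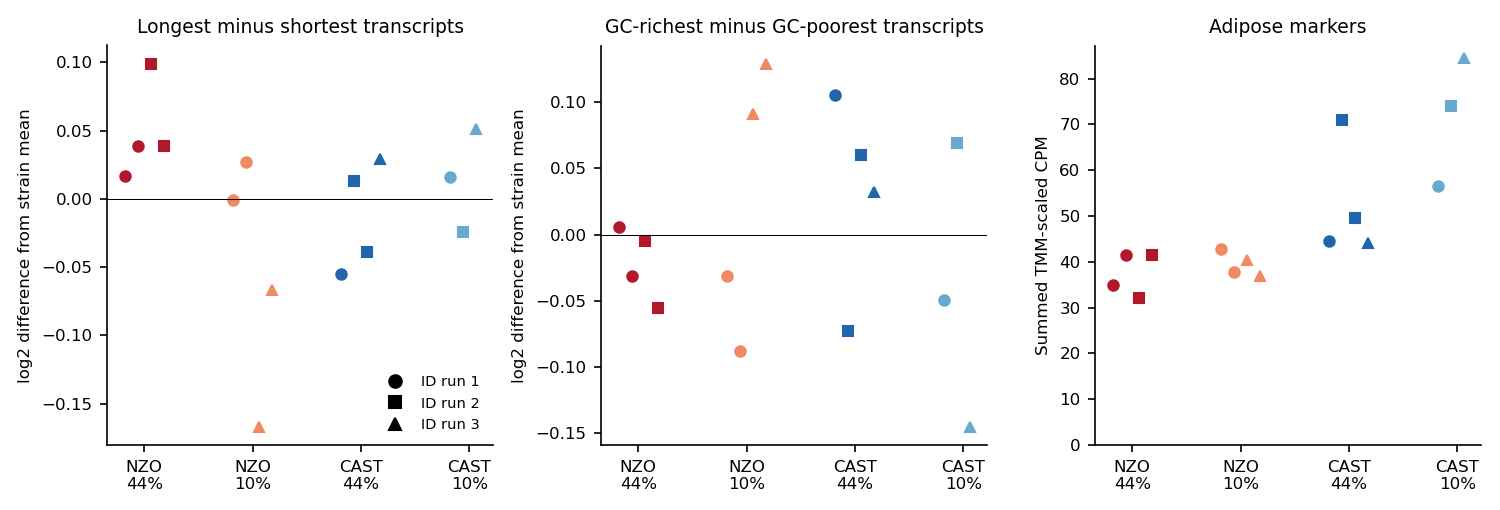
Each of the 15 libraries by strain and diet, with the run of ID numbers in its title as the symbol: the log2 level of the top over the bottom quartile of transcript length and of GC content, both relative to the strain's mean, and the summed CPM of the adipose markers. On 10% fat, NZO/HlLtJ replicates 3 and 4 lie at -0.167 and -0.067 in length and at 0.091 and 0.129 in GC, and adipose markers reach 84.6 CPM in CAST/EiJ on 10% fat.

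Few genes had both strains' diets apart. For 19 genes (0.0831%) every library on 44% fat lay above every library on 10% fat in NZO/HlLtJ and below it in CAST/EiJ, and for 6 (0.0262%) the reverse held. The same separation in a common direction was found for 9 genes higher on 44% fat in both strains and 9 lower (0.0393% each). Within NZO/HlLtJ alone 1.86% of genes were so separated upward on 44% fat and 1.71% downward, and within CAST/EiJ alone 2.39% and 2.9%. With at least 1 CPM there were 16 and 5 such genes, chosen after their values were seen, and their unadjusted p ran up to 0.076. Besides Kdm6a, the 16 include the stress granule gene G3bp1, the scaffold gene Spag9, the tyrosine kinase gene Abl2, the reelin receptor gene Lrp8, the forkhead gene Foxj3 and Spry1, an inhibitor of growth factor signals. Foxj3, needed for spermatogenesis in mice, had 30.9, 30.8, 32.0 and 33.4 CPM in NZO/HlLtJ on 44% fat, against 29.6, 28.5, 27.3 and 28.3 CPM on 10% fat. In CAST/EiJ Foxj3 had 26.7, 27.1, 25.8 and 27.6 CPM on 44% fat, against 29.6, 27.9 and 29.8 CPM on 10% fat. Its difference was 0.28 (SE 0.08, adjusted p = 0.659). The 5 negative genes were Hspbap1, the splicing gene Snrnp27 (-0.37), Scml1 (-0.81), Prps1l1 (-0.19), a testis form of an enzyme of nucleotide synthesis, and 1700122O11Rik (-0.39).

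C4b, which encodes complement component 4 and lies in the MHC region, is the gene whose call depends most on 1 library, and it was chosen for that reason. NZO/HlLtJ testes had 14.3, 14.3, 14.3 and 15 CPM of C4b on 44% fat, against 8.75, 9.69, 8.32 and 17.6 CPM on 10% fat. CAST/EiJ testes had 4.91, 6.93, 6.56 and 5.89 CPM of C4b on 44% fat, against 6.44, 8.24 and 8.17 CPM on 10% fat. NZO/HlLtJ 10% fat replicate 4 stands above every library on 44% fat, and the other 3 on 10% fat stand below them. The difference was 0.73 (SE 0.23, adjusted p = 0.659) with all libraries and 1.05 (adjusted p = 0.00258) without that library. Its neighbour C4a shares 16.5% of the 100-base windows of C4b, and their sum had a difference of 0.54 (SE 0.17, adjusted p = 0.667).

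Among Leydig cell genes, 0 of 18 passed the test. Star, which moves cholesterol into mitochondria for steroid synthesis, was at 87.7, 73.6, 50 and 44.7 CPM in NZO/HlLtJ on 44% fat, against 45.8, 56.3, 137 and 80.7 CPM on 10% fat. In CAST/EiJ Star was at 75.7, 57.3, 72.9 and 71.3 CPM on 44% fat, against 64.8, 81.1 and 122 CPM on 10% fat. Libraries of each diet overlap widely, and the difference was 0.04 with a 95% interval of -0.74 to 0.83 (SE 0.38), which spans differences of either sign. Cyp17a1, the enzyme gene at the branch toward androgens, averaged 488 ± 54.2 CPM on 44% fat and 561 ± 102 CPM on 10% fat in NZO/HlLtJ (SD, n = 4 each), against 154 ± 21.8 CPM (n = 4) and 183 ± 42.7 CPM (n = 3) on 44% and 10% fat in CAST/EiJ. Its difference was 0.05 (SE 0.20, 95% interval -0.36 to 0.45).

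Insl3, the Leydig hormone of testis descent, had 196, 146, 245 and 151 CPM in NZO/HlLtJ on 44% fat, against 142, 139, 133 and 241 CPM on 10% fat. In CAST/EiJ Insl3 had 81.6, 74.7, 84.7 and 69.8 CPM on 44% fat, against 92.5, 103 and 66.6 CPM on 10% fat. NZO/HlLtJ 10% fat replicate 4 stands high, as for C4b, and the difference was 0.34 (SE 0.23, adjusted p = 0.734), with 0.59 without that library and 0.17 without NZO/HlLtJ 44% fat replicate 3. Of the 100-base windows of the Insl3 transcript, 58.2% occur in Jak3, an overlapping gene. Hsd3b6, a steroid dehydrogenase gene, had 3.59, 3.01, 4.68 and 3.51 CPM in NZO/HlLtJ on 44% fat, against 5.62, 6.01, 5.99 and 7.25 CPM on 10% fat. It had 36.5, 28.1, 33.6 and 25.7 CPM in CAST/EiJ on 44% fat, against 37.6, 26.5 and 35.9 CPM on 10% fat. The NZO/HlLtJ diets are apart and the CAST/EiJ diets overlap, with a difference of -0.66 (SE 0.28, adjusted p = 0.665). Over the 18 Leydig markers the median difference was 0.04, 11 lay above 0, and 1 had an unadjusted p under 0.05.

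Over the 36 gene lists, 0 of 619 tested genes passed the threshold in either direction, and 40 (6.46%) had an unadjusted p under 0.05, against 7.45% of all genes tested. The median difference over all tested genes was 0, and 49.5% lay above 0. Of 22 genes of MHC and antigen presentation, 18 lay above 0 with a median of 0.26, and 4 had an unadjusted p under 0.05, all positive: the class I gene H2-Q6, and H2-Ab1, H2-Eb1 and Cd74, which serve class II presentation. H2-Q6, with a difference of 1.88 (SE 0.47, adjusted p = 0.526), averaged only 0.36 CPM. Cd74 was at 9.77 to 22.1 CPM on 44% fat and 5.82 to 12.9 CPM on 10% fat in NZO/HlLtJ. In CAST/EiJ Cd74 was at only 1.15 to 2.47 CPM on 44% fat and 1.64 to 2.41 CPM on 10% fat. H2-Ab1 had 3.22, 6.47, 2.22 and 1.56 CPM in NZO/HlLtJ on 44% fat, against 1.16, 2.49, 1.54 and 2.41 CPM on 10% fat. It had 1.96, 3.0, 2.34 and 2.29 CPM in CAST/EiJ on 44% fat, against 2.97, 2.66 and 3.4 CPM on 10% fat. NZO/HlLtJ 44% fat replicate 2 stands high, the diets overlap in both strains, and the difference was 1.19 (SE 0.46, adjusted p = 0.665), with a lowest value of 0.64 when 1 library was left out. Of 25 interferon response genes, 17 lay above 0 with a median of 0.23, and 2 had an unadjusted p under 0.05, among them the antiviral gene Mx1.

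The testicular macrophage markers, which mark cells that can present antigen, had a median of -0.12 and 6 of 15 above 0. Their summed level was 137 to 172 CPM in NZO/HlLtJ on 44% fat and 130 to 183 CPM on 10% fat, against 180 to 197 CPM in CAST/EiJ on 44% fat and 183 to 188 CPM on 10% fat. Of these sums, Fcgr3 alone reached 70 and 70.4 CPM in CAST/EiJ on 44% and 10% fat. In NZO/HlLtJ it reached only 3.11 and 3.76 CPM. Mrc1 went the other way, reaching 69.8 and 67.9 CPM in NZO/HlLtJ against 54.8 and 59.3 CPM in CAST/EiJ. The sums therefore do not rank the strains by macrophage content. None of the macrophage markers was at 0 in every library of a group. Their part in the MHC values was not tested.

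The adipose markers had the highest median of the lists, 0.47, with 12 of 14 genes above 0 and 0 at an unadjusted p under 0.05. Their sums were 32.1 to 41.5 CPM in NZO/HlLtJ on 44% fat and 36.9 to 42.7 CPM on 10% fat, against 44.2 to 70.9 CPM in CAST/EiJ on 44% fat and 56.6 to 84.6 CPM on 10% fat. The median diet effect was -0.10 in NZO/HlLtJ and -0.48 in CAST/EiJ. Lpl, the lipase that frees fatty acids from lipoproteins, had 1.0, 3.97, 1.75 and 3.04 CPM in NZO/HlLtJ on 44% fat, against 4.07, 2.81, 1.72 and 2.02 CPM on 10% fat. It had 1.92, 8.38, 3.46 and 2.0 CPM in CAST/EiJ on 44% fat, against 7.97, 6.86 and 11.9 CPM on 10% fat. The difference for Lpl was 1.11 (SE 0.62, adjusted p = 0.699), and it was 1.80 without CAST/EiJ 44% fat replicate 2 and 0.76 without NZO/HlLtJ 44% fat replicate 2.

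**Figure D4:**
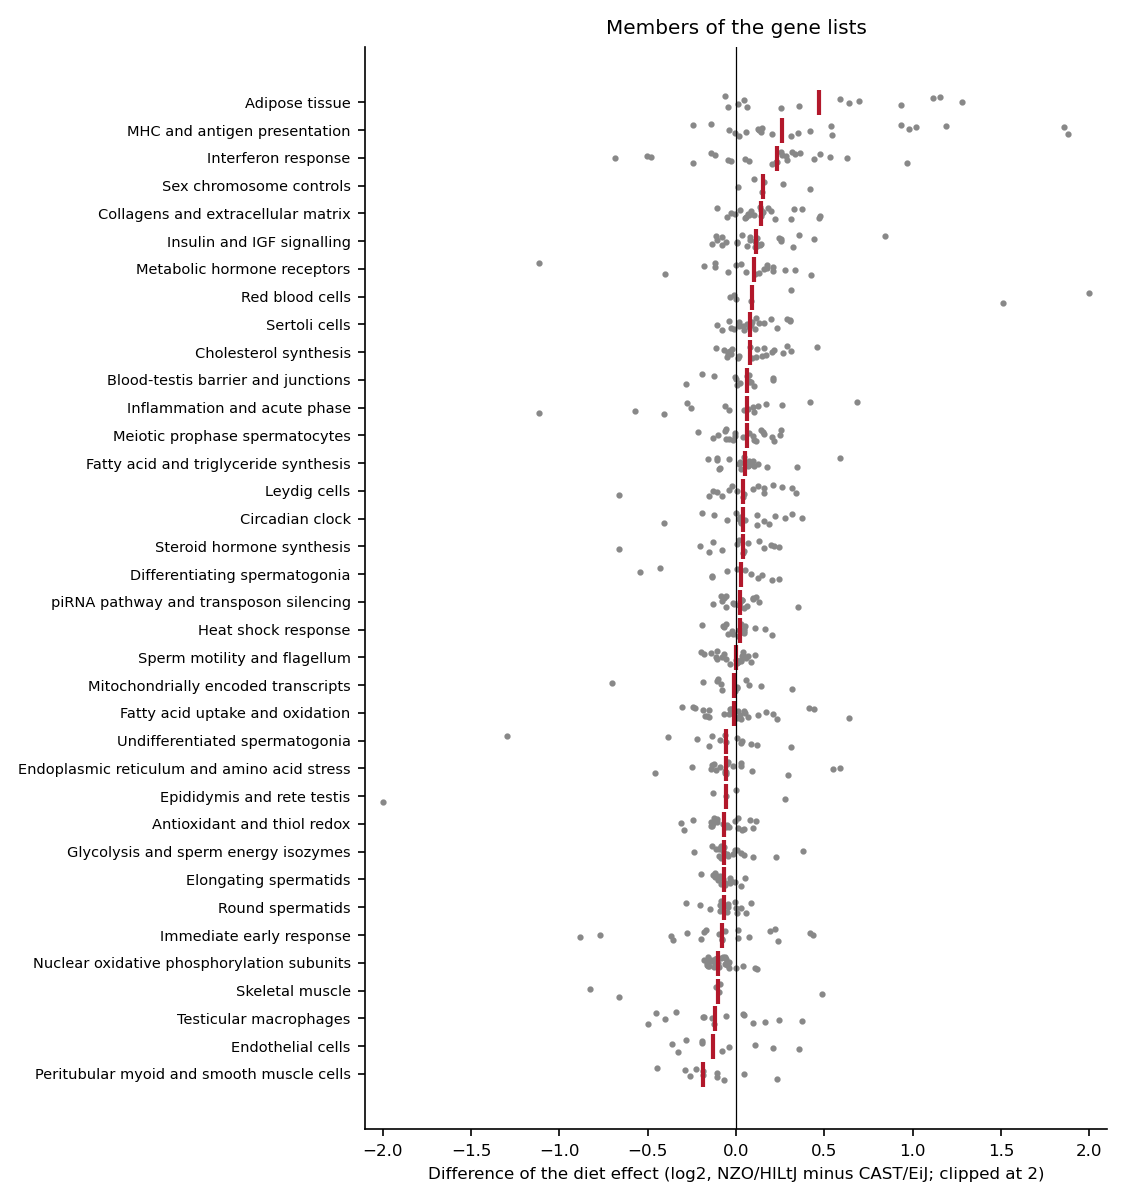
Difference of the diet effect (log2, NZO/HlLtJ minus CAST/EiJ, values beyond 2 drawn at 2) for each tested member of the 36 gene lists (grey points), with the list's median in red, ordered by median. Adipose tissue (0.47), MHC and antigen presentation (0.26) and interferon response (0.23) have the highest medians, and smooth muscle (-0.19) the lowest.

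Insulin and growth factor signalling had a median of 0.11, with 20 of 26 genes above 0. Igf1 (0.44, SE 0.18), the growth factor gene, its receptor gene Igf1r (0.25, SE 0.12) and Rictor (0.25, SE 0.11), a subunit of the second mTOR complex, had an unadjusted p under 0.05, each at an adjusted p of 0.665 or 0.671. With the offsets for GC content and length, the median of this list was 0.04. Under these offsets Igf1 had a difference of 0.29, Igf1r 0.18 and Rictor 0.12, with unadjusted edgeR p-values of 0.0737, 0.118 and 0.108. Igf1 averaged 15.8 ± 3.19 CPM on 44% fat and 14.3 ± 1.38 CPM on 10% fat in NZO/HlLtJ (SD, n = 4 each), against 23.7 ± 2.13 CPM (n = 4) and 29.1 ± 3.08 CPM (n = 3) on 44% and 10% fat in CAST/EiJ. In cholesterol synthesis 2 of 24 genes had an unadjusted p under 0.05, Insig1, which holds back the sterol sensor, and Lss, which makes lanosterol, and the median was 0.08. With the offsets, Lss had 0.19 (unadjusted p = 0.112) and Insig1 0.46 (unadjusted p = 0.0113) in edgeR's test. Insig1 had 23.3, 22.8, 23.6 and 24.1 CPM in NZO/HlLtJ on 44% fat, against 20.8, 20.2, 26.2 and 24.4 CPM on 10% fat. It had 9.27, 11.5, 9.97 and 9.03 CPM in CAST/EiJ on 44% fat, against 9.59, 12.3 and 17.9 CPM on 10% fat. The diets overlap in both strains, and CAST/EiJ 10% fat replicate 3 stands high. Its difference was 0.46 (SE 0.18, adjusted p = 0.665), with a lowest value of 0.18 when 1 library was left out.

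**Figure D5:**
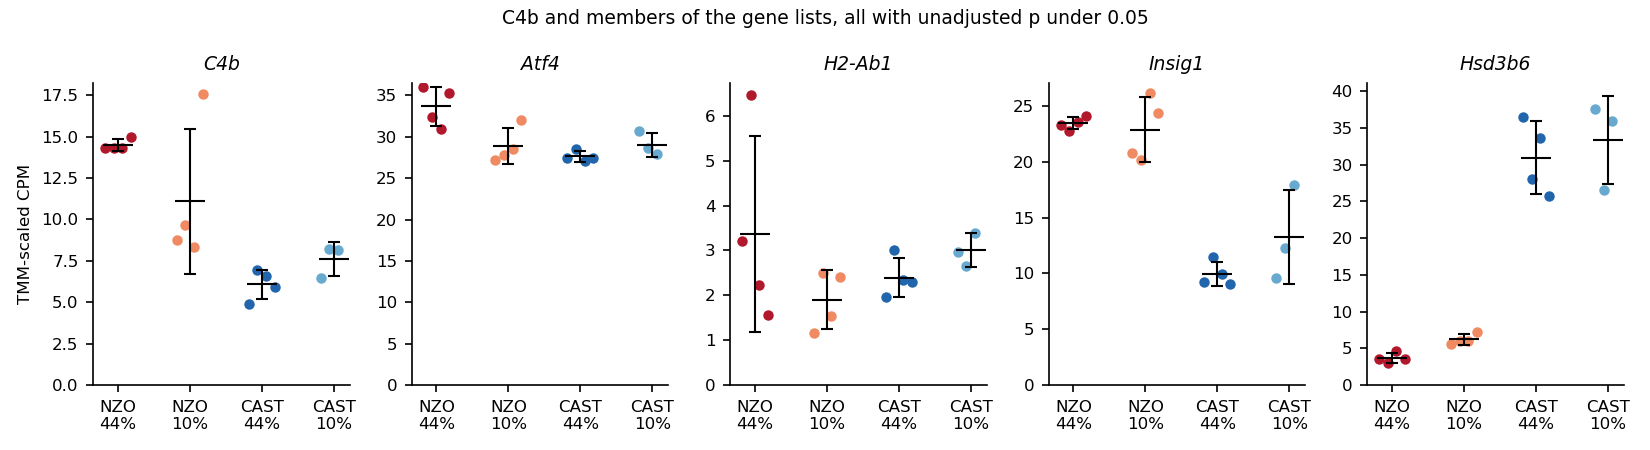
Expression (TMM-scaled CPM, y axes starting at 0) of C4b and of 4 list members in NZO/HlLtJ (NZO) and CAST/EiJ (CAST) testes on 44% or 10% fat, with points for libraries and bars for the mean ± SD (n = 4, 4, 4 and 3). Single libraries stand apart: without H2-Ab1 at 6.47 CPM in NZO/HlLtJ 44% fat replicate 2 or Insig1 at 17.9 CPM in CAST/EiJ 10% fat replicate 3 the gene's difference is smaller, and without C4b at 17.6 CPM in NZO/HlLtJ 10% fat replicate 4 it is larger.

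Germ cell and mitochondrial lists lay near 0 or slightly below. Elongating spermatid markers had a median of -0.07 with 2 of 18 genes above 0, round spermatid markers -0.07 with 4 of 18, and meiotic prophase markers 0.06 with 12 of 22. Of 30 nuclear subunits of oxidative phosphorylation, 3 lay above 0, the median was -0.10, and 0 had an unadjusted p under 0.05. Collagens and matrix genes lay the other way, with 20 of 24 above 0 and a median of 0.14. With the offsets for GC content and length, the median was -0.05 for oxidative phosphorylation, -0.02 for elongating spermatids, -0.06 for round spermatids and 0.11 for collagens, and the part of length and GC content was not tested further. Catsper3, a subunit of the sperm calcium channel, had the smallest p among the round spermatid markers, at 47 ± 2.6 CPM on 44% fat and 53.8 ± 2.54 CPM on 10% fat in NZO/HlLtJ (SD, n = 4 each), against 41 ± 2.44 CPM (n = 4) and 38.6 ± 2.16 CPM (n = 3) on 44% and 10% fat in CAST/EiJ. Its difference was -0.29 (SE 0.09, adjusted p = 0.659).

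Genes that differ strongly in level between the strains need care in this contrast. The mitochondrial gene mt-Co2 was at 751 to 932 CPM in every NZO/HlLtJ library, but at 3.81, 2.87, 1.92 and 1.94 CPM on 44% fat and 1.53, 1.44 and 2.32 CPM on 10% fat in CAST/EiJ. Its difference of -0.70 (SE 0.22, adjusted p = 0.659) rests on a CAST/EiJ level of a few CPM for a gene that every cell uses. It was -0.39 without CAST/EiJ 44% fat replicate 1 and -0.96 without CAST/EiJ 10% fat replicate 3, and lay between -1.28 and -0.16 over all 27 settings. No source used here says how reads with strain variants were handled.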

How the data were processed

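Testis RNA of male mice was sequenced as polyA libraries (KAPA mRNA HyperPrep, 100 bp pairs on a NovaSeq, per the labels' protocols). The deposited table holds estimated counts per gene for 28861 genes in 23 libraries, of which 23.1% of values are not whole. The submitters' processing notes name GRCm38 and DESeq2, and no source used here names the aligner, counter or annotation release. Every deposited gene had a count above 0 in at least 12 libraries. A second deposited table by the authors, of log2 values, was not used.

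Expected counts as deposited were rounded to whole numbers, filtered with filterByExpr on the 6 groups (22873 genes) and scaled by TMM. One fit over 23 libraries, with a mean for each group and 17 residual degrees of freedom, gave quasi-likelihood p-values (edgeR 4.0.16, R 4.3.3), which Benjamini-Hochberg adjustment turned into calls at 0.05 across every gene in the fit. Alternatives used limma 3.58.1 and DESeq2 1.42.0. Replicate pairs differed by more than counting error (chi-square over degrees of freedom 3.32 to 18 in 21 pairs). The fit was tested on simulated data, with genes of at least 1 CPM altered. It recovered 8 of 50 genes altered 1.25-fold, 28 of 50 at 1.5-fold, 45 of 50 at 2-fold and 50 of 50 at 4-fold. It also called 9 unaltered genes.

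The groups came from the labels. The members and gene lists were chosen with earlier results of these data known. Named genes were the 5 with the smallest p per direction with an official symbol and at least 1 CPM (up to 15 had more passed), plus Star, Cyp17a1 and Insl3, and some genes that qualified are not reported here. Other named genes were chosen after their values were seen, as the smallest p in a list, as genes with no overlap between diets, or as C4b. Residual differences between replicates may be technical, so p-values measure the spread between these libraries. ID numbers in the titles fall into 3 runs, which no label calls batches. Floors cover counting error only.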

Additional observations from a re-analysis of the deposited data

Results flagged for a closer look

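Within groups of 4 libraries, 12 of 234 gene and group combinations (78 named genes) had 1 library far from the other 3, and chance alone gives about 1 in 20 groups. NZO/HlLtJ 10% fat replicate 4 had 17.6 CPM of C4b, against 8.32 to 9.69 CPM in the other 3, and 241 CPM of Insl3, against 133 to 142 CPM. NZO/HlLtJ 10% fat replicate 3 had 4.59 CPM of Eno1b, against 4.23 to 4.28 CPM, and 303 CPM of the flagellar gene Tekt1, against 279 to 282 CPM. NZO/HlLtJ 10% fat replicate 1 had 0.282 CPM of Fam220-ps, against 0.0482 to 0.0671 CPM, and 1.13 CPM of Mcc, against 1.95 to 2.04 CPM. NZO/HlLtJ 10% fat replicate 2 had 8.16 CPM of 1700122O11Rik, against 6.65 to 6.83 CPM. In NZO/HlLtJ on 44% fat, replicate 4 had 15 CPM of C4b, against 14.3 CPM in the other 3, replicate 3 had 72 CPM of Rictor, against 62.5 to 63.9 CPM, replicate 1 had 42.6 CPM of Dcn, against 53.2 to 54.8 CPM, and replicate 2 had 0.911 CPM of Scml1, against 1.23 to 1.27 CPM. In CAST/EiJ on 44% fat, replicate 1, the deepest library, had 15.3 CPM of Lss, against 17.9 to 18.2 CPM.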

How the results depend on the processing

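The count of genes with a different diet effect was 0 in the fit reported and also 0 with RLE scaling, no filter on low counts, a minimum of 1 CPM, limma-voom, the run of ID numbers as a term, a robust spread, 13 of 15 fits without 1 library, and, chosen after seeing the data, without the deepest library and the library with the most Crisp1, and with GC content and length offsets. DESeq2 called 7 genes (2 positive, 5 negative), among them Slc38a2, Hspbap1, Eno1b, Mark1-ps3 and the second Sgsm3 gene. The 15 libraries alone gave 1 call, negative (Gm20775), and the first run alone gave 12 (5 positive, 7 negative) from 2 and 2 NZO/HlLtJ and 1 and 1 CAST/EiJ libraries, with the lone libraries assumed to vary like the others. Leaving out 1 library gave 0 to 2 calls (positive 0 to 1, negative 0 to 1): Gm3095 and Mark1-ps3 without CAST/EiJ 44% fat replicate 3, and C4b without NZO/HlLtJ 10% fat replicate 4. Leaving out the 2 NZO/HlLtJ libraries that stand apart, chosen after seeing the data, gave 1 call, positive (C4b). Genes at an unadjusted p under 0.05 numbered 1225 to 2058 without 1 library, against 1704.
Of 78 named genes, 75 kept their sign under every setting that gave a value. Star and Cyp17a1, both near 0, turned: Star ranging from -0.25 to 0.44 without 1 library, below 0 in 6 of 15 fits, and at -0.01 without the deepest library and the one with the most Crisp1 and at -0.01 with the offsets, and Cyp17a1 ranging from -0.08 to 0.23 without 1 library, below 0 in 6 of 15 fits, and at -0.20 in the first run, where Wfdc15a, an epididymis gene, turned to 0.10. The cause was not tested. Over the 27 settings the median of the adipose list lay between 0.16 and 0.73, of the MHC list between 0.14 and 0.64 and of the interferon list between 0.17 and 0.29, while those of the macrophage (-0.19 to 0.17), Leydig (-0.05 to 0.16) and cholesterol (-0.03 to 0.14) lists took either sign.
No paired analysis was possible because replicate numbers only follow the order of the samples. Depth limits genes under 1 CPM, and 3 or 4 libraries a group limit small differences.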
